A study of Mus musculus with 14 samples.

Results

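Single mouse bone marrow cells that held counts of both Hlf and Mecom are described, with what else they expressed and how often they occurred. They were found in 4 MARS-Seq plates by a rule on counts: of the 716 cells with 500 or more total counts, a member had at least 1 count of Hlf and at least 1 of Mecom, which gave 112 members, 63 with the name prefix WT_ and 49 with KO_. The remaining cells comprised 232 with Hlf alone, 131 with Mecom alone and 241 with 0 of both, and the last class served for comparison. Members were chosen by the measured counts of both genes, so their levels and their joint detection are given as a description without tests.

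The study concerns Phf19, a Polycomb-associated protein, in haematopoietic stem cells (HSCs) of floxed control mice and of mice lacking Phf19. MARS-Seq sorts single cells into wells, primes polyadenylated RNA at its 3' end and counts molecules by unique molecular identifiers. All plates are labelled as CD150+CD48- HSCs from lineage-depleted bone marrow. The labels name no genotype for a plate, but the cell names carry WT_ in wells 1 to 96 and KO_ in the higher well numbers of each plate, so prefix and well position cannot be told apart. The sources used here do not give whether WT_ cells are the floxed controls, which Cre line was used, or the strain, sex and age. No label ties a plate to an animal of its own. The p-values therefore reflect only how much plates vary, which may be technical.

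Hlf is a transcription factor of the PAR bZIP family and Mecom, also known as Evi1, is a zinc-finger transcription factor. Both are known as markers of the most immature blood-forming cells in mice, where their transcripts fade as cells commit to lineages, and loss of either is known to impair stem cell maintenance. Stem cells are also known for surface proteins such as EPCR (Procr) and CD150 (Slamf1), whereas CD48 and Flt3 mark multipotent progenitors that have left the stem cell state.

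The plates themselves differed in transcripts of these markers. The label names surface proteins, which were not measured here, and Flt3 is not part of it. Slamf1, the gene of CD150, was found in 3, 11, 1 and 0 cells of plates 350W to 353W. Cd48 had 1 count in the 187 cells of plate 350W and 0 in the 185 cells of plate 351W, which allows a share of cells with a count of up to 1.62%, but was found in 65 cells of plate 352W (38.5%) and 18 of plate 353W (10.3%). Flt3 followed the same split, at 2.14% and 4.86% of the cells of plates 350W and 351W against 63.3% and 39.4% for plates 352W and 353W. Vwf, a platelet-lineage gene also found in stem cells, was detected in 73.3% of cells of plate 350W and in 1.78 to 10.8% elsewhere, and Procr reached its highest level, 156 CPM (counts of a gene scaled to the total count), in plate 351W. Hlf stood at 386, 284, 188 and 199 CPM in plates 350W to 353W, and Mecom at 202, 149, 96.6 and 129 CPM. The plates with Cd48 and Flt3 thus had the lower levels of both genes. Total counts per kept cell ran from 509 to 15130, and plate sums from 533593 to 893098. Ighm, an immunoglobulin gene of B cells, had counts in 99.4% of cells of plate 352W and 82.3% of plate 353W against 1.6% and 0.0% in plates 350W and 351W.

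**Figure D1:**
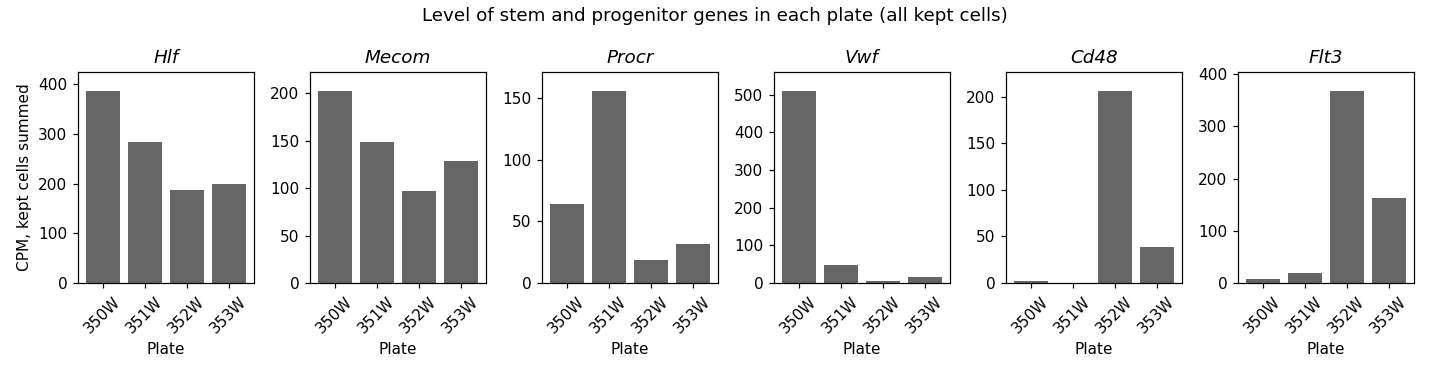
Level of 6 genes in each plate, in CPM over the summed counts of all kept cells of the plate (bars, 1 value per plate, no error). Hlf and Mecom are highest in plate 350W, while Cd48 and Flt3 are close to 0 in plates 350W and 351W and high in plate 352W.

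Members held few counts of the defining transcripts. Of the 112 members, 41 (36.6%) sat just inside the rule with 1 count of each gene, 42 had 2 or more Hlf counts and 1 of Mecom, 18 had 1 of Hlf and 2 or more of Mecom, and 11 had 2 or more of both. The highest member values were 8 Hlf and 5 Mecom counts. Just outside the rule lay 125 cells with a single Hlf count and no Mecom and 86 with a single Mecom count and no Hlf. Cells with the most Hlf were not all members, since a cell without Mecom held 9 Hlf counts and a cell without Hlf held 7 Mecom counts. In all, members held 214 of the 686 Hlf counts and 166 of the 380 Mecom counts of kept cells.

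Members had higher total counts than cells with 0 of both. Their median total was 4048 counts, against 2887 in cells with 0 of both, 3356 in cells with Hlf alone and 3813 in cells with Mecom alone. By plate, the median of members was 2690, 4039, 3458 and 5791 counts in plates 350W to 353W, and that of cells with 0 of both was 2531, 3015, 2671 and 3834. The member median was the higher of this pair in each plate, by the least in plate 350W. The shallowest member had 1703 counts, so no cell near the cut of 500 counts entered. When cells of each plate and prefix were ranked into 3 groups by depth, the share of members was 9.96% in the shallowest, 16.7% in the middle and 20.3% in the deepest group.

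**Figure D2:**
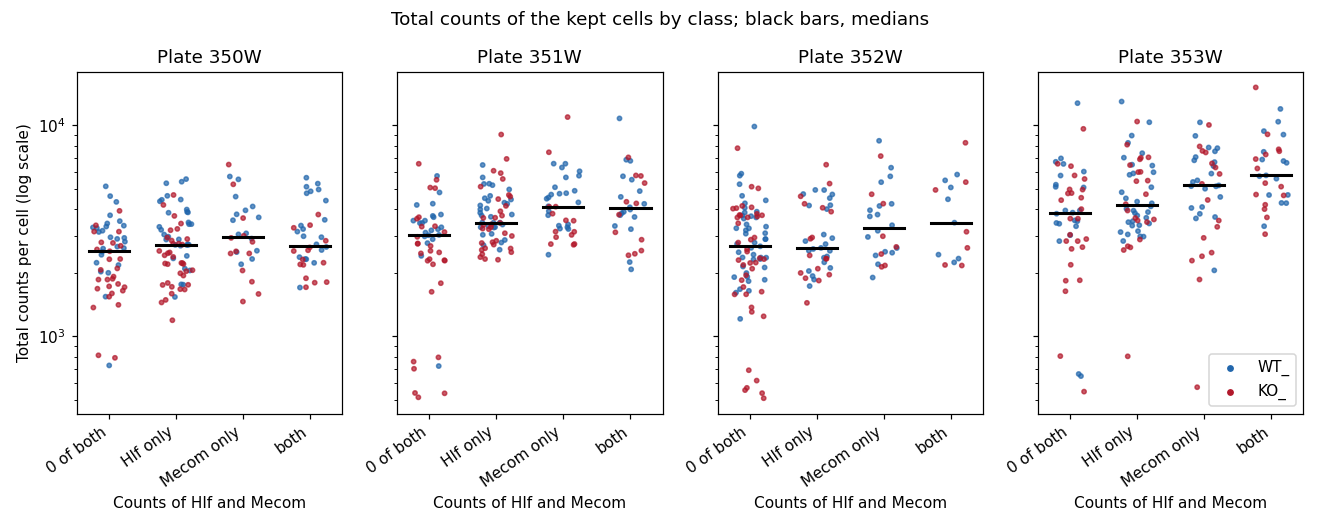
Total counts per cell (log axis) of the 716 kept cells by plate and by which of both genes had counts, with WT_ cells in blue, KO_ cells in red and black bars at the medians. Members (both) have a higher median than cells with 0 of both in every plate, with the smallest gap in plate 350W, and a median of 4048 counts over all plates against 2887 in cells with 0 of both.

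Having one gene went with no higher rate of having the other. Mecom was detected in 32.6% of the cells with Hlf and in 35.2% of those without it. Multiplying the single shares of Hlf and Mecom within each plate and prefix gave 119.8 cells with both, against the 112 observed, a ratio of 0.935. Within 24 groups of like plate, prefix and depth the product was 122.1 cells and the ratio 0.917. The ratio within 1 plate and prefix lay between 0.779 in WT_ cells of plate 353W and 1.44 in KO_ cells of plate 352W, where only 7 members stood behind it. Summed over all plates, the members were thus slightly fewer than the product of the single shares.

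The share of members in WT_ and KO_ cells addressed whether cells with both genes were rarer or more common among cells with the KO_ prefix. In plate 350W, 21 of 95 WT_ cells (22.1%, exact 95% interval 14.2 to 31.8%) and 15 of 92 KO_ cells (16.3%, 9.42 to 25.5%) were members. In plate 351W the counts were 18 of 96 (18.8%, 11.5 to 28.0%) and 12 of 89 (13.5%, 7.17 to 22.4%). In these plates, which almost lacked Cd48 and Flt3, the share was higher in WT_ cells. Plate 352W held 8 of 95 (8.42%, 3.71 to 15.9%) and 7 of 74 (9.46%, 3.89 to 18.5%), and plate 353W 16 of 95 (16.8%, 9.94 to 25.9%) and 15 of 80 (18.8%, 10.9 to 29.0%). There the share was slightly higher in KO_ cells, and the intervals, which cover counting error only, overlapped within every plate.

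The mean difference, KO_ minus WT_, was -2.03 percentage points (SD 4.07, n = 4 plates; two-sided exact sign-flip permutation test, p = 0.5, where 0.13 is the smallest p that 4 plates allow). KO_ cells were shallower, with a median of 2838 counts against 3660 in WT_ cells, and 49 of the 52 wells left out for low totals were KO_ wells. Counting as members only the cells with 2 or more counts of at least 1 of the genes, the share was lower in KO_ cells in 4 of 4 plates (mean -4.20 points, SD 3.08, exact permutation p = 0.13). Depth was not equal in that comparison.

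The shares were also set at equal depth, where fewer cells of either prefix hold both genes, so differences in percentage points are not on the same footing as those above. Thinning each cell to 1500 counts left out 5 WT_ and 28 KO_ cells, and the expected share of cells with both genes, computed exactly from each cell's counts, was 8.72% in WT_ and 9.46% in KO_ cells of plate 350W, and 5.36% and 4.14% in plate 351W. Plates 352W and 353W gave 2.47% and 3.02%, and 2.30% and 2.98%. The mean difference was 0.188 points (SD 0.939, n = 4; exact sign-flip permutation p = 0.625), higher in KO_ cells in 3 of 4 plates. A single random draw to 1500 counts, which found 35 members, gave 6.38% and 7.14%, 7.37% and 3.61%, 4.26% and 4.69%, and 4.30% and 2.63% in WT_ and KO_ cells of plates 350W to 353W (mean difference -1.06 points, SD 2.10, exact permutation p = 0.5). Neither value was larger than the spread between plates, and their signs differ.

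Thinning also changed the order of the plates. Plate 353W, the deepest, had 17.7% members as deposited and an expected 2.61% at 1500 counts, next to plate 352W with 8.88% and 2.69%. Plate 350W had 19.3% as deposited and 9.07% at 1500 counts, and plate 351W 16.2% and 4.79%. At equal depth, then, the plates with little Cd48 and Flt3 had the larger shares, plate 350W first and plate 351W next, as for the levels of Hlf and Mecom.

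**Figure D3:**
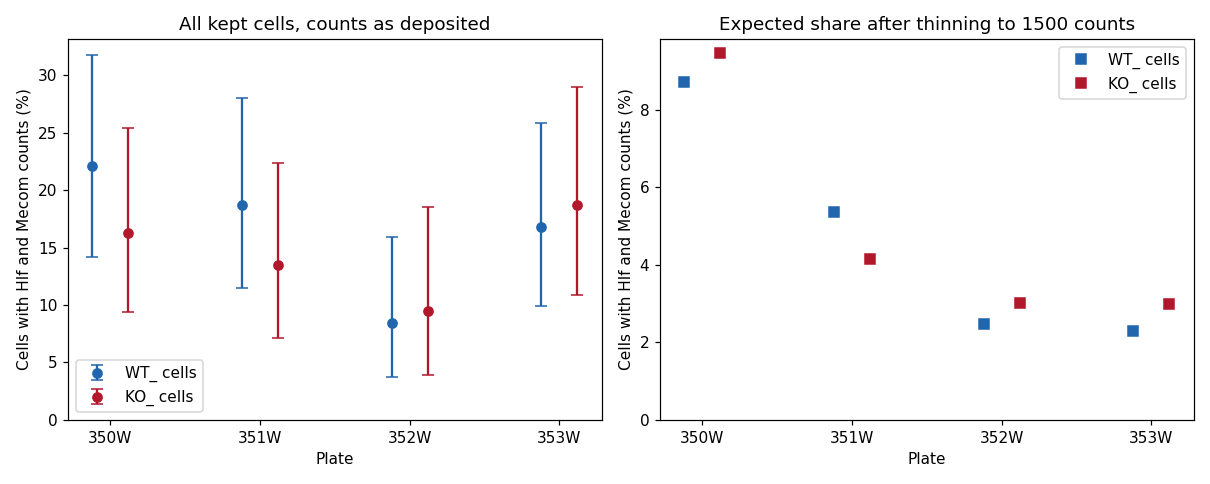
Percentage of cells with counts of both Hlf and Mecom by plate and name prefix, on the left as deposited with exact 95% intervals (bars, counting error only) and on the right as the expected percentage when each cell is thinned to 1500 counts (no error shown). WT_ and KO_ intervals overlap within each plate, and plate 353W falls from 17.7% over both prefixes to 2.61% at equal depth.

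To ask which genes accompany both factors, 102 members were each paired with a cell with 0 of both from the same plate and prefix at a like total, and 10 members found no partner. The paired members numbered 33, 27, 15 and 27 in plates 350W to 353W, 54 WT_ and 48 KO_, with a median of 3772 counts without Hlf and Mecom, against 3534 in their partners. After thinning to 1500 counts they showed 1061 genes per cell against 1055, and mitochondrial transcripts were 2.21% against 2.11% of counts. Counts were summed per plate and class and tested with edgeR's quasi-likelihood test with the plate as a block.

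No gene was called between members and their partners. Of the 1720 genes tested, 0 (0.0%) passed an adjusted p of 0.05 by edgeR, 50 (2.91%) had an unadjusted p below 0.05, of which 23 (1.34%) were higher and 27 (1.57%) lower in members, and DESeq2 called 0 with 8 at an unadjusted p below 0.05. By direction alone, 107 genes (6.22%) were higher and 120 (6.98%) lower in members in 4 of 4 plates. The median log2 fold change over all genes tested was -0.00087 with a median SE of 0.30. Differences near the size of that SE were not detectable. Larger ones could also miss the threshold, as Nim1k did at 1.43 (SE 0.28). The 12 genes of smallest p with 1 direction in 4 of 4 plates are given next, all of which missed the threshold.

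The first pair of them, Nim1k, a kinase of the AMPK-related family, and Nipal3, which encodes a membrane protein of the NIPA-like family, had most of their counts in a few wells. Nim1k had 22, 19, 39 and 72 counts in members of plates 350W to 353W against 10, 14, 10 and 17 in their partners (log2 fold change 1.43, SE 0.28, edgeR adjusted p = 0.176). Nipal3 had 23, 13, 27 and 17 against 10, 3, 4 and 8 (log2 fold change 1.61, SE 0.38, edgeR adjusted p = 0.438). Members were higher in each plate for both genes.

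These counts returned in the same well numbers of every plate. Well 78 held 33, 35, 37 and 43 Nim1k counts in plates 350W to 353W, though its cell had 0 of both genes in the first plate, Hlf alone in the second, Mecom alone in the third and both in the last. Well 50 held 18, 10, 17 and 13 Nipal3 counts. In 9 well numbers, the sum of both transcripts reached 5 or more in every plate. Paired members in these 9 well numbers were 9 cells with 117 of the 152 Nim1k counts of members, while 3 partners there held 27 of 51. Outside them 93 members had 35 Nim1k counts and 99 partners 24, and for Nipal3 the counts were 20 and 12. The 9 well numbers were picked after the data were seen, for high counts of these genes, so the counts elsewhere are lower by construction. Well numbers just short of that cut stayed among the others. Well 118 had 4 Nim1k and 5 Nipal3 counts in a member of plate 350W, and 3 and 1 in a member of plate 351W. Membership and well number therefore cannot be told apart in the counts that remain.

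Over the 162 well numbers kept in all plates, levels of Nim1k correlated between plates with a mean Pearson r of 0.80 over the 6 pairs of plates, and those of Nipal3 with 0.749. The median over the genes tested was 0.0106, and 5 genes exceeded 0.3, the others being A430010J10Rik, Gm6213 and Shb. Hlf gave 0.00366, Mecom 0.0248 and membership itself -0.0302. These are descriptions over wells that share a plate position. Of 191 well numbers, 98 held a member in 0 plates, 76 in 1, 15 in 2, 2 in 3 and 0 in 4, where 15.6% of all kept cells were members. Whether these numbers differ from those of unrelated plates was not tested.

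**Figure D4:**
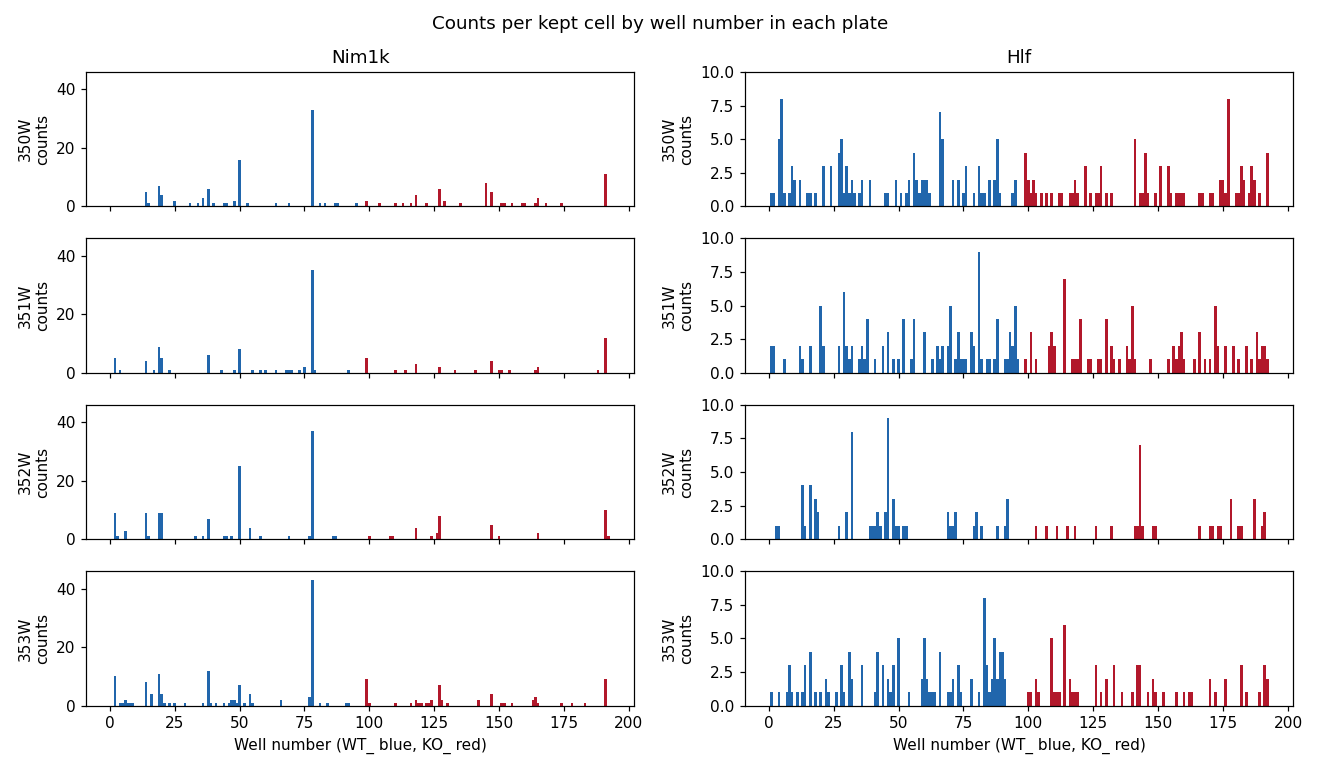
Counts of Nim1k (left) and Hlf (right) in each kept cell by well number, 1 row per plate, WT_ cells blue and KO_ cells red. Nim1k repeats the same peaks in every plate, such as 33, 35, 37 and 43 counts in well 78, while Hlf does not.

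The other 10 leading genes had no such pattern by well, each with a mean correlation between plates from -0.0438 to 0.0290, and comprised 5 higher and 5 lower in members. Tma7, a ribosome-associated factor of translation, had 22, 35, 15 and 49 counts in members and 10, 19, 12 and 18 in partners (log2 fold change 0.92, SE 0.26). Ost4, a small subunit of the oligosaccharyltransferase, had 15, 33, 9 and 55 against 10, 15, 6 and 21 (0.96, SE 0.28). Hsp90aa1, a cytosolic heat shock protein, had 11, 36, 12 and 33 against 6, 17, 9 and 12 (0.94, SE 0.30). The predicted gene Gm10923 and Ssh2, a phosphatase that activates cofilin, had log2 fold changes of 1.16 (SE 0.34) and 0.92 (SE 0.32). In each plate the members had the larger count of these 5 genes.

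The 5 genes lower in members, each by CPM in 4 of 4 plates, serve antigen processing, splicing, translation and secretory granules. Psme2, a subunit of the proteasome activator PA28, had 15, 10, 6 and 25 counts in members against 20, 29, 13 and 39 in partners (log2 fold change -0.94, SE 0.29). Snrpb, a core spliceosomal protein, had 16, 27, 4 and 32 against 24, 48, 11 and 42 (-0.75, SE 0.24), and Eif3d, a subunit of an initiation factor, 15, 20, 6 and 19 against 15, 25, 26 and 42 (-0.91, SE 0.31). Arglu1, a splicing-associated protein, had a log2 fold change of -1.09 (SE 0.36), and Srgn, the proteoglycan serglycin, -0.36 (SE 0.13). By edgeR, adjusted p-values of these 10 genes ran from 0.848 to 0.998.

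**Figure D5:**
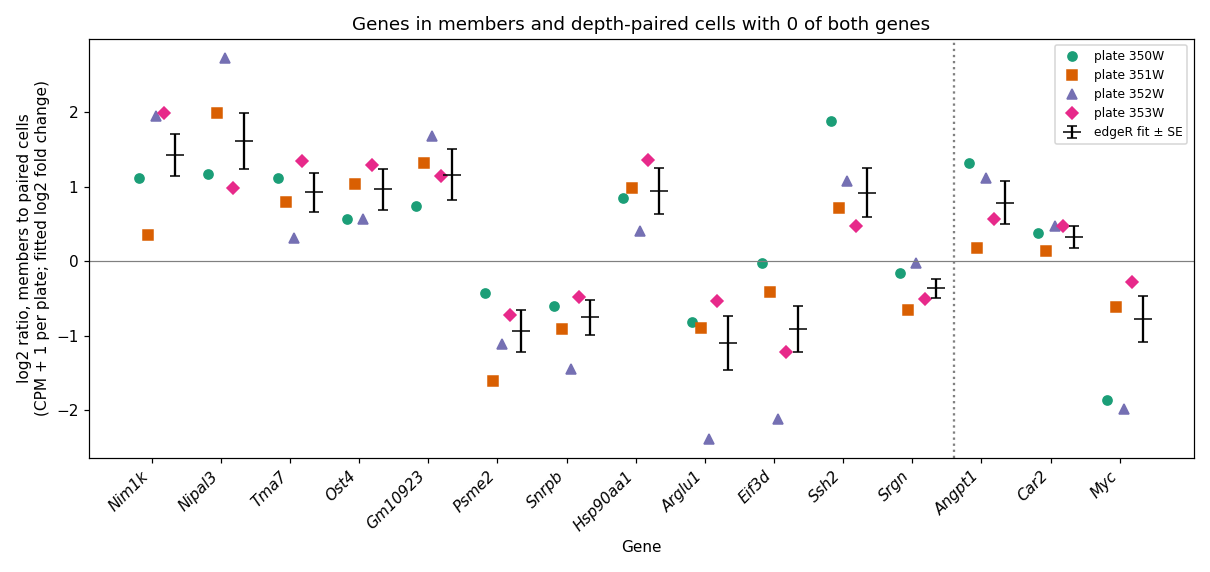
Log2 ratio of members to depth-paired cells with 0 of both genes, per plate (coloured points, CPM + 1) and as fitted by edgeR over the 4 plates (black, ± SE), for the 12 leading genes and, right of the dotted line, Angpt1, Car2 and Myc. All 12 genes have 1 direction in 4 of 4 plates and none passed the adjusted threshold.

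Stem cell surface genes did not stand apart in members. The list of 30 held 29 genes present in the tables and 13 with enough counts to test, of which 0 were called, 7 were above and 6 below 0, with a median log2 fold change of 0.05 against -0.00087 over all genes tested. The summed level of the list was 5561, 7166, 3701 and 4216 CPM in members of plates 350W to 353W and 5389, 6829, 3636 and 4402 CPM in partners. Members were slightly higher in 3 of 4 plates, by less than plates differed from each other. CPM here and in the following lists is scaled to the counts of all genes except Hlf and Mecom.

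Among the genes that usually define stem cells, Kit, the receptor of stem cell factor, had 101 counts in members and 85 in partners (log2 fold change 0.19, SE 0.25), and Ly6a, which encodes Sca-1, 70 and 94 (-0.60, SE 0.38). Adgrg1, or GPR56, had 250 and 221 (0.15, SE 0.18), and Cd34 72 and 76. Several were too sparse to test: Procr had 27 counts in members and 43 in partners, Tek 9 and 4, Fgd5 4 and 5, and Slamf1 3 and 11. The lowest unadjusted p-values of the list belonged to the tetraspanin gene Cd81, with 81 and 42 counts (0.87, SE 0.33, higher in 3 of 4 plates), and to Nrgn, neurogranin, with 123 and 77 (0.62, SE 0.24, higher in 4 of 4 plates). These were named after their values were seen, and the edgeR adjusted p of both was 0.998. Levels of Ifitm1, Ly6e and Ptprcap, the tested genes of the list with the highest mean CPM over plates and classes, differed by -0.17, -0.21 and 0.05 on the log2 scale (SE 0.14, 0.17 and 0.17).

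Transcription factors of the stem cell programme gave 12 testable genes of 32, with 0 called, 6 above and 6 below 0 and a median log2 fold change of -0.0015. Runx1, a master regulator of blood formation, had 98 counts in members and 66 in partners (0.59, SE 0.29, higher in 4 of 4 plates), while Meis1 had 53 and 68 (-0.42, SE 0.30) and Erg 51 and 68 (-0.45, SE 0.32), both lower in 4 of 4 plates. The edgeR adjusted p of each was 0.998. Lmo2, Etv6 and Msi2, which had the highest mean CPM over plates and classes among the tested genes, had log2 fold changes of -0.11 (SE 0.17), 0.22 (SE 0.28) and -0.36 (SE 0.35). Prdm16, the closest relative of Mecom, was too sparse to test at 23 counts against 11. So were the relatives of Hlf: Dbp had 18 and 29 counts, Tef 19 and 15, and none of the 6 genes of that list was tested.

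Quiescence and cell cycle genes gave no calls. Of 24 genes listed for quiescence and growth restraint, which include D-type cyclin genes, 3 were tested and 0 called. The cyclin genes Ccnd2 and Ccnd3, and Txnip, had log2 fold changes of -0.03, -0.11 and -0.49 (SE 0.29, 0.32 and 0.28). The inhibitor genes Cdkn1a, Cdkn1b, Cdkn1c and Cdkn2c were too sparse to test. They had 11, 22, 6 and 1 counts in members against 1, 9, 6 and 1 in partners, the 11 of Cdkn1a in 5 cells. Other untested genes of the list went both ways, as Tsc22d3 with 28 and 8 counts and Smad7 with 10 and 26. The summed level of the list was 1178, 2456, 850.1 and 1054 CPM in members against 1366, 2319, 1039 and 1254 CPM in partners, higher in members in 1 of 4 plates. Of the S phase genes, 4 of 25 were tested with a median of 0.12, among them Pcna at 0.41 (SE 0.29), Dut at 0.34 (SE 0.40) and Dnmt1 at -0.11 (SE 0.36). Their summed level was 1135, 2024, 1667 and 3022 CPM in members against 1076, 1908, 1173 and 2677 CPM in partners, higher in members in 4 of 4 plates. Of the G2/M genes, 7 of 28 were tested with a median of 0.11, and the summed level was 774.7, 1122, 4401 and 3670 CPM against 914.2, 1311, 3753 and 2845 CPM. The level of these genes followed the plate more than the class, as for the chromatin protein gene Hmgb2 with 2, 7, 39 and 47 counts in members and 2, 4, 39 and 44 in partners.

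Lineage programmes also gave 0 calls. Of the multipotent and lymphoid genes, 3 of 20 were tested, and Flt3 had 1, 2, 22 and 20 counts in members against 0, 0, 14 and 19 in partners (log2 fold change 0.45, SE 0.50), Ccr9 43 against 50 and Bach2 67 against 69. The summed level of this list was lower in members in 4 of 4 plates, at 711, 506, 2217 and 1740 CPM against 892.7, 724, 2279 and 1915 CPM. Of its 529 counts in members and 577 in partners, the untested gene Cd52 held 25 and 60. Cd48, too sparse to test, had 0, 0, 12 and 4 counts in members against 0, 0, 14 and 10. Summed over cells, members of plates 352W and 353W therefore had counts of both Flt3 and Cd48, as their partners did. Over all plates, Cd48 was found in 8 paired members and 12 partners, and Flt3 in 25 and 20.

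Vwf had 42, 2, 1 and 3 counts in members and 48, 0, 1 and 2 in partners, and Nfe2, a transcription factor of platelet formation and the single tested gene of 20 on the megakaryocyte list, had 101 and 80 (0.32, SE 0.34). Car2, carbonic anhydrase and 1 of 2 tested erythroid genes of 18, had 121, 89, 32 and 59 counts against 92, 76, 23 and 40 (0.33, SE 0.15, edgeR adjusted p = 0.998), higher in members in 4 of 4 plates. Slc25a21, the other, had 51 and 54. Prtn3, proteinase 3 and the single tested granule gene of 22, had 105 and 97 counts (0.04, SE 0.23).

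Genes of niche contact, stress and chromatin gave no calls either. Angpt1, a ligand of the Tie2 receptor, had 33, 18, 24 and 22 counts in members against 13, 15, 11 and 14 in partners (log2 fold change 0.79, SE 0.29, edgeR adjusted p = 0.998), more in members in 4 of 4 plates. The other 2 tested genes of the 18 for homing, Cd47 and Selplg, had -0.29 (SE 0.32) and -0.28 (SE 0.33). Myc, a driver of growth counted here among immediate early genes, had 3, 16, 3 and 48 counts against 11, 23, 12 and 55 (-0.77, SE 0.31, adjusted p = 0.998), fewer in members in 4 of 4 plates, and Jun and Fos, of the same list with 4 of 17 tested, had -0.46 (SE 0.39) and -0.38 (SE 0.34). The summed immediate early level was 817.1, 873.9, 833.5 and 920.7 CPM in members and 1033, 1291, 988.6 and 950.6 CPM in partners, lower in members in 4 of 4 plates. Besides this list, only the summed S phase, multipotent and lymphoid, and T and NK cell lists kept 1 direction in 4 of 4 plates. All other lists were mixed, and the sums were not tested.

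Of the 32 Polycomb genes, 4 were tested with a median of -0.28, and Rbbp7, Yaf2 and Phc1 had 0.01, -0.34 and -0.23 (SE 0.25, 0.32 and 0.37). Phf19 itself had 1 count in members, in a KO_ cell, and 2 in partners, in WT_ cells, which does not check the prefixes. Among the 10 tested genes of 21 for interferon response and antigen presentation, B2m, H2-K1 and H2-D1 had 0.04, -0.02 and 0.22 (SE 0.14, 0.15 and 0.16), and the median was 0.02. Metabolism was likewise near 0, with medians of 0.10 over 5 of 18 glycolytic genes and -0.02 over 23 of 28 respiratory chain genes. Ldha, Aldoa and Pkm had 0.24, -0.19 and 0.43 (SE 0.30, 0.32 and 0.32), and Atp5e, Ndufa2 and Cox6a1 had 0.12, 0.10 and 0.31 (SE 0.18, 0.25 and 0.22).

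Markers of other cell types were low in both classes, apart from immunoglobulin. Summed levels of T and NK cell markers were 0.0 to 116.7 CPM in members and 21.5 to 167.6 CPM in partners, with Cd3e, Trbc2, Cd4 and Klrd1 at 0 in both. Markers of monocytes, macrophages and dendritic cells summed to 66.7 to 203.2 CPM and 88.1 to 217.8 CPM with Itgax at 0, those of mast cells and basophils to 16.7 to 69.8 CPM and 10.8 to 58.7 CPM with Mcpt8, Fcer1a and Ms4a2 at 0, and those of endothelium and stroma to 101.6 to 211.6 CPM and 75.3 to 322.9 CPM. B and plasma cell markers summed to 31.8, 82.8, 6701 and 1168 CPM in members and to 32.3, 58.7, 23310 and 1072 CPM in partners, with Vpreb1 at 0 in both. The difference of that list rested on plate 352W, where partners held 659 Ighm and 534 Igkc counts and members 222 and 102. The log2 fold changes were -0.92 (SE 0.28) for Ighm and -1.43 (SE 0.36) for Igkc (edgeR adjusted p = 0.927 and 0.488). Without the 8 cells of over 100 immunoglobulin counts, 1 of them a member, Ighm was at 0.10, and Gm30211, whose counts nearly equal those of Igkc, could not be told apart from it.

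Whether members differed between prefixes was tested on their sums per plate and prefix. Bach2, a repressor that steers lymphoid and B cell differentiation, had most of its counts in WT_ members. There were 22, 18, 14 and 26 counts in WT_ members of plates 350W to 353W and 0, 2, 0 and 2 in KO_ members, and Bach2 was detected in 30 of 63 WT_ members (47.6%, exact 95% interval 34.9 to 60.6%) and in 2 of 49 KO_ members (4.08%, 0.498 to 14.0%). The fitted log2 fold change was -3.78 (SE 0.62, edgeR adjusted p = 0.0834), and -4.02 (SE 0.96) by DESeq2. Its size is imprecise, because 2 of the KO_ sums are 0. Bach2 missed the threshold in the edgeR fit, where 0 of 963 genes (0.0%) passed. In that fit 50 genes (5.19%) had an unadjusted p below 0.05, 20 (2.08%) higher and 30 (3.12%) lower in KO_ members. DESeq2 called 1 gene, which was Bach2 (adjusted p = 0.0273), and edgeR called it when cells of over 100 immunoglobulin counts were left out (adjusted p = 0.0159). Without plate 353W it was too sparse to be tested.

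Cells outside the members showed the same direction for Bach2. Cells with 0 of both genes had 252 CPM in WT_ and 17.3 CPM in KO_ cells, those with Hlf alone 303 and 42.6 CPM, those with Mecom alone 272 and 24.3 CPM, and members 271 and 19.0 CPM. In each class KO_ cells had the low level. The difference of members from partners did not differ detectably between prefixes for Bach2 (interaction log2 -0.99, SE 1.25, edgeR adjusted p = 0.998). Within prefixes Bach2 did not recur by well number (mean r 0.000696), but the prefixes occupy separate well ranges.

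The next genes in KO_ against WT_ members by p were Rpl30 and Cd74. Rpl30, a ribosomal protein, was at 1188, 1751, 942 and 1153 CPM in KO_ members against 780, 671, 415 and 776 CPM in WT_ members. It was higher in KO_ members in 4 of 4 plates (log2 fold change 0.86, SE 0.20, edgeR adjusted p = 0.614). Of all genes tested 85 (8.83%) were higher and 52 (5.4%) lower in KO_ members in 4 of 4 plates. Scaled to all counts, Rpl30 was at 1271 CPM in KO_ and 708 CPM in WT_ members, and at 1185 and 683 CPM in cells with 0 of both. Cd74, the invariant chain of MHC class II, was at 189, 161, 69.8 and 106 CPM in KO_ members and 342, 335, 31.9 and 412 CPM in WT_ members, lower in 3 of 4 plates (-1.30, SE 0.36, edgeR adjusted p = 0.911). Of the listed stem cell genes, 9 surface genes and 8 transcription factors could be tested, with medians of -0.05 and -0.23 against -0.0088 over all genes. Kit was at -0.05 (SE 0.28), Runx1 at -0.12 (SE 0.37), Myct1 at 0.60 (SE 0.36) and Sox4 at -0.88 (SE 0.53), all uncalled.

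The interaction of class and prefix, which asks whether the genes of members differ from partners in another way in KO_ than in WT_ cells, gave 0 calls among 1332 genes by edgeR (0.0%), with 35 (2.63%) at an unadjusted p below 0.05, 19 (1.43%) above and 16 (1.2%) below 0. DESeq2 called 0, with 11 at an unadjusted p below 0.05. The smallest p-values belonged to Gm30211, Igkc and Ighm, at 2.16, 2.20 and 1.74 on the log2 scale (SE 0.60, 0.62 and 0.49, edgeR adjusted p = 0.812 each). Ighm and Igkc are immunoglobulin genes, and most of their counts lay in plate 352W, as given above.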

How the data were processed

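The authors deposited 1 table of counts for each of 4 plates, with genes in rows, cells in columns and no normalization, and per the labels the protocol was MARS-Seq. The submitters' processing notes name GRCm38.p4 and FastQC. Aligner, counting settings and strand use: not given in the sources used here, so overlapping genes cannot be told apart. Members and gene lists were chosen with earlier results of these data known. Gene IDs matched symbols for 25714 of 25832, without versions, and IDs that shared a symbol were kept apart. Cells with 500 or more counts were kept (716 of 768 wells). No doublet caller was run, and 0 pairs of cells had identical columns. The ChIP-seq lists, bulk RNA-seq and ATAC-seq were not analysed here.

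Each member was paired within plate and prefix with a cell of 0 Hlf and Mecom counts, within 0.1 on log10 of the total without both genes, taking the most pairs and then the least distance. Hlf and Mecom were removed before sums, library sizes and tests. The sums of each plate entered the quasi-likelihood test of edgeR 4.0.16 in R 4.3.3, after filterByExpr and TMM scaling and with the plate as a block, with Benjamini-Hochberg adjustment over all genes tested and a threshold of 0.05, and with DESeq2 1.42.0 as an alternative. Standard errors are the log2 fold change over the root of F. The code was tested on simulated counts. Shares were compared over plates by exact sign-flip tests with exact (Clopper-Pearson) 95% intervals, in Python 3.11.15 with scipy 1.17.1. CPM was computed from the deposited counts. Alternatives changed the filters, thinning depth, pairing, members, scaling, block and tool, and left out each plate in turn. The rule for genes named took the first 12 genes of smallest p with 1 direction in 4 plates, the first 3 of the other fits, up to 3 abundant tested genes per list and a few fixed markers (Hlf, Mecom, Phf19, Bach2, Slamf1, Cd48, Flt3, Vwf and Procr), and further genes of the lists were chosen after their values were seen. The block is the plate itself: deviations of sums from their class means correlated over genes within a plate at 0.493 to 0.588 for members and partners and 0.452 to 0.599 for KO_ and WT_ members.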

Additional observations from a re-analysis of the deposited data

Results flagged for a closer look

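The log2 ratio of a list's summed CPM in members to that in partners was compared over the 4 plates for 1 plate set far from the other 3, which chance alone does in about 1 of 20 such groups, and 2 of 48 groups were so marked. For the erythroid list plate 351W lay apart at -0.0651, against 0.39 to 0.45 in the other plates. For the markers of monocytes, macrophages and dendritic cells plate 352W lay apart at -1.69, against 0.39 to 0.64 elsewhere. The causes were not tested.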

How the results depend on the processing

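The cell and count numbers limit these results: with 4 plates the exact sign-flip test of a share cannot fall below p = 0.13, 15 members stand behind plate 352W, and most listed genes were too sparse to test. The difference in the share of members kept its sign in every alternative, from -3.34 to -0.773 percentage points when 1 plate was left out and -5.53 in plates 350W and 351W alone. At 1500 counts it ran from -1.66 to -0.159 without 1 plate, and the sign turned to 0.124 with the stricter rule, 1.99 and 0.411 at 1000 and 2000 counts, and 0.156, 0.188 and 0.215 as the expected share at 1000, 1500 and 2000 counts, an addition made after seeing the data. Members against partners gave 6 calls without a gene filter and 7 among genes with 15 or more counts (added after seeing the data), which were immunoglobulin genes, Gm30211, Nim1k and, in the second, Nipal3, and from 0 to 1 without 1 plate, the 1 being Nim1k without plate 351W (replicate 2, adjusted p = 0.00668). Members of opposite prefix gave 1 call by DESeq2, 8 without a gene filter, 7 among genes with 15 or more counts and 1 without cells of high immunoglobulin. That comparison gave 0 calls with library totals, in plates 350W and 351W alone, and when any 1 plate was left out. Those of both looser filters were Bach2, Igkc, Igkv14-126, Ighm, Gm30211, mt-Rnr2 and mt-Rnr1, with Gm42418 added by no filter. Igkc had 52 and 633 counts in WT_ members of plates 352W and 353W against 50 and 49 in KO_ members. Ighm had 113 and 578 against 109 and 49, so the difference of both genes lay mainly in plate 353W. The interaction gave 3 calls without a gene filter, and 0 to 3 without 1 plate, the 3 being Gm30211, Igkc and Ighm without plate 353W (replicate 4). Without the plate as a replicate block 0 genes were called for members against partners and 0 for KO_ against WT_ members. Srgn was at 0.020 against cells with exactly 1 of the genes. Igkc turned to 0.66 with all comparison cells, 0.27 when thinned, 1.41 against cells with exactly 1 of the genes, 0.017 with stricter members and 0.072 in KO_ cells alone, and Ighm to 0.72, 0.28, 0.86, 0.50 and 0.16 in the same settings and 0.10 without cells of high immunoglobulin. The cause of these shifts was not tested.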
